A study of Mus musculus with 12 samples.

Results

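The 31 genes described here encode the enzymes, carriers and regulators of fatty acid oxidation. They were taken by name and role with earlier results of these data known, and each was represented by the probe set annotated to that gene alone with the highest mean over all arrays. Of the 31, 29 had such a probe set among the 18193 genes named on the array, and all 29 were bright enough to be tested with the other genes. The 2 genes without a value are Cpt1b, the muscle form of the enzyme that commits fatty acids to the mitochondrion, whose probe set is shared with other genes, and Acsl1, an acyl-CoA synthetase, for which the annotation used here gave no probe set. Acaa1a is represented by its brightest unshared probe set, since 2 brighter ones also match its close copy Acaa1b.

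The samples were whole tumours of 344SQ, a mouse lung adenocarcinoma line, grown under the skin of the right flank of female 129sv/ev mice. Resistant tumours came from a derivative of 344SQ that is resistant to anti-PD-1, an antibody against the inhibitory T cell receptor PD-1, and parental tumours from the sensitive line it was derived from. Mice bearing either tumour received anti-PD-1 or control IgG at 10 mg/kg on days 4 and 7, and tumours were taken on day 11, with 5 mice per group. Expression was measured on 12 arrays, 3 for each of 4 groups: resistant tumours under anti-PD-1, resistant tumours under IgG, parental tumours under anti-PD-1 and parental tumours under IgG. The labels do not say which of the mice stand behind an array, and the resistant cells are a single derived line, so p-values measure the spread between these arrays only. All 8 epithelial markers examined were above the dim limit on at least 3 arrays. Their mean on each array was 9.32 to 9.52 in resistant and 9.35 to 10.3 in parental tumours on the log2 scale.

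Fatty acids are activated to acyl-CoA by synthetases, passed into the mitochondrion as carnitine esters, and shortened there by a repeated cycle of oxidation, hydration, oxidation and thiolysis that feeds electrons to the respiratory chain and acetyl-CoA to the citric acid cycle. Peroxisomes carry out a like cycle with their own enzymes on very long and branched chains. The nuclear receptors of the PPAR family, with the coactivator encoded by Ppargc1a, switch on many of these genes in liver, heart and muscle, and malonyl-CoA, which blocks entry into the mitochondrion, restrains the pathway when fat is being made.

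Promoters were examined for the binding motifs of these receptors. RefSeq promoters of build GRCm38.p6, from 250 bases before to 50 bases after the start of transcription, were matched for 26 of the genes, with 27 promoters in all. The direct repeat of AGGTCA with 1 base between its 2 copies, the form bound by PPAR with its partner RXR, was found in 0 of the 27 on either strand, against 0.0396% of all 32851 promoters of the table. The extended site TCAAGGTCA of the estrogen-related receptors was also in 0 of 27, against 0.423% of all. The core AGGTCA, which is contained in both motifs, was in 4 of 27 or 14.8%, those of Acadm, Echs1, Acadvl and Cpt1a, against 16.3% of all and 13.6% of those of tested genes. The GC box GGGCGG, bound by Sp factors, was in 20 of 27 or 74.1%, against 35.7% of all promoters and 56.2% of those of tested genes. The longer motifs are so rare in all promoters that 0 of 27 is the likely outcome for any set of this size. Their absence therefore does not set these genes apart. These are matches of letters in a short window and show no binding. The promoters of Hadhb, Cpt1a and Echs1 are printed because these genes carry the differences described below. Hadhb and Cpt1a were called under either antibody, and Echs1 was called under anti-PD-1 but not under IgG. Each is the stretch of 250 bases before the start, 5′ to 3′ on the strand of the gene, with the AGGTCA and GGGCGG matches of either strand in capitals. For Cpt1a this start and the stretch lie inside the annotated span of the gene, which begins at base 3322326 of chromosome 19.
Hadhb, chr5:30155003-30155252, plus strand: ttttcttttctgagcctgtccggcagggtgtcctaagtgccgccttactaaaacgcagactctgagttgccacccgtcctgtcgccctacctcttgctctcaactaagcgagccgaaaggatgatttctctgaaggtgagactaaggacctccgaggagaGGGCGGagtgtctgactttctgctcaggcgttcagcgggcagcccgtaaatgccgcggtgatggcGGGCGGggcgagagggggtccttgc
Cpt1a, chr19:3323051-3323300, plus strand: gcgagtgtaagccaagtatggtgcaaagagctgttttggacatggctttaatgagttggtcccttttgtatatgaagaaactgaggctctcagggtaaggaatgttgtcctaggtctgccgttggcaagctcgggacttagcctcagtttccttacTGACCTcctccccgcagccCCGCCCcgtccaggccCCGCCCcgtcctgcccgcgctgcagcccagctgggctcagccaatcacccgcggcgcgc
Echs1, chr7:140116422-140116671, minus strand: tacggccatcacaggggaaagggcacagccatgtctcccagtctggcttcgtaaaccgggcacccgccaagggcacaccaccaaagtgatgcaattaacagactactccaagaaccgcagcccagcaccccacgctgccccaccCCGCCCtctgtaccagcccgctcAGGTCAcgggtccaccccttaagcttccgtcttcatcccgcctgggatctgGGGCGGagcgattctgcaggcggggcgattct
The Hadhb stretch lies between 2 start sites that point away from each other, since Hadha starts on the minus strand at base 30154980 and Hadhb on the plus strand at base 30155253 of chromosome 5, with 272 bases between them.

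Most genes of the pathway were expressed at a higher level in resistant than in parental tumours. With both antibodies averaged, 17 of the 29 genes (58.6%) were called higher and 1 (3.45%) lower in resistant tumours by limma's moderated test at an adjusted p under 0.05, against 25.2% of all 15493 genes called higher and 15% called lower (40.2% in all). The median difference of the 29 was 0.28 on the log2 scale, against 0.08 for all genes. The values are log2 expression as deposited, and levels of different genes are not comparable between probe sets. With the probe sets used, the changes were modest: the largest was 0.67, or 1.59-fold, for Hsd17b10. A further, dimmer probe set of Acaa2 gave 1.01, against 0.56 with the one used. For 9 of 29 genes all 6 resistant arrays lay above all 6 parental arrays, against 11.2% of all genes, and for 0 all lay below, against 6.65%. At an unadjusted p under 0.05 there were 20 of 29, against 49.4% of all genes. Of the 18 calls, 16 held whichever array was left out. In whole tumours, a change in the share of a cell type and a change in RNA per cell cannot be told apart.

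In the carnitine shuttle, Cpt1a, Cpt2 and Slc25a20 were called higher, while Cpt1b had no value. Cpt1a, the liver-type carnitine palmitoyltransferase of the outer membrane and the step that malonyl-CoA inhibits, had levels of 8.23, 8.25 and 8.51 in resistant tumours under anti-PD-1 and 8.43, 8.28 and 8.17 in resistant tumours under IgG, against 7.66, 8.01 and 7.86 in parental tumours under anti-PD-1 and 7.74, 7.79 and 8.04 in parental tumours under IgG. Every resistant array lay above every parental array, and the averaged difference was 0.46 ± 0.09 (SE, adjusted p = 0.00189). Cpt2, which returns the acyl group to CoA on the inner membrane, had 8, 8.02 and 8.11 in resistant tumours under anti-PD-1 and 8, 8.07 and 7.93 under IgG, against 7.45, 7.44 and 7.56 in parental tumours under anti-PD-1 and 7.58, 7.53 and 7.55 under IgG. The 2 lines were widely separated for Cpt2 relative to its small spread, by 0.50 ± 0.05 (SE, adjusted p = 4.09e-05). Slc25a20, the carrier that exchanges acylcarnitine for carnitine between these enzymes, ranged from 8.28 to 8.58 with a median of 8.44 in the 6 resistant arrays, against 7.83 to 8.39 with a median of 8.11 in the 6 parental arrays. The lines overlapped slightly for Slc25a20, which was higher by 0.33 ± 0.09 (adjusted p = 0.0143). Crat, which makes short-chain acylcarnitines and was grouped with the shuttle, was not called (-0.12 ± 0.08), and its highest level, 7.83, was on parental anti-PD-1 replicate 3. The synthetases that activate long-chain fatty acids were not called either, with differences of 0.25 ± 0.11 for Acsl3 and 0.17 ± 0.07 for Acsl5.

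Within the mitochondrial cycle, 6 of 10 genes were called higher. Of the 4 dehydrogenases, which take the electrons in the opening step and are specialised by chain length, the very-long-chain enzyme Acadvl was called higher (0.26 ± 0.07, adjusted p = 0.00857), with 8.57 to 8.77 in resistant and 8.26 to 8.59 in parental arrays. The medium-, long- and short-chain enzymes Acadm, Acadl and Acads had differences of -0.06, -0.03 and 0.08 with adjusted p-values of 0.505, 0.792 and 0.56. Downstream, Hadha and Hadhb, the subunits of the trifunctional protein that carries long chains through hydration, oxidation and thiolysis, were both called. Hadha had 8.13, 8.29 and 8.16 in resistant tumours under anti-PD-1 and 8.14, 8.18 and 7.96 under IgG, against 7.68, 7.51 and 7.78 in parental tumours under anti-PD-1 and 7.72, 7.7 and 7.79 under IgG. Hadhb had 9.36, 9.27 and 9.22 in resistant tumours under anti-PD-1 and 9.23, 9.25 and 9.3 under IgG, against 8.82, 9.03 and 8.75 in parental tumours under anti-PD-1 and 8.74, 9.06 and 8.85 under IgG. Neither gene overlapped between the lines, and the paired subunits differed by similar amounts, 0.45 ± 0.07 for Hadha (adjusted p = 0.000397) and 0.40 ± 0.07 for Hadhb (adjusted p = 0.00131).

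The enzymes that handle shorter chains after the opening step were higher as well. Echs1, the short-chain enoyl-CoA hydratase, had 9.44, 9.41 and 9.5 in resistant tumours under anti-PD-1 and 9.35, 9.63 and 9.3 under IgG, against 8.64, 8.81 and 8.66 in parental tumours under anti-PD-1 and 9.22, 9.19 and 9.13 under IgG. Hsd17b10, a short-chain hydroxyacyl-CoA dehydrogenase that also degrades isoleucine and forms part of mitochondrial RNase P, had 9.46, 9.43 and 9.67 in resistant tumours under anti-PD-1 and 9.51, 9.66 and 9.17 under IgG, against 8.46, 8.63 and 8.5 in parental tumours under anti-PD-1 and 9.08, 9 and 9.21 under IgG. For both genes the parental tumours under anti-PD-1 were the lowest group by a clear margin, and the mean of parental tumours under IgG lay between theirs and those of the resistant tumours. Echs1 did not overlap between the lines, and Hsd17b10 did so through resistant IgG replicate 3. The averaged differences were 0.50 ± 0.07 for Echs1 (adjusted p = 0.000236) and 0.67 ± 0.09 for Hsd17b10 (adjusted p = 0.00021). Acaa2, the thiolase that closes the cycle, was higher by 0.56 ± 0.09 (adjusted p = 0.000598), while Hadh, the classical short-chain hydroxyacyl-CoA dehydrogenase, was not called (0.17 ± 0.09, adjusted p = 0.151).

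**Figure D1:**
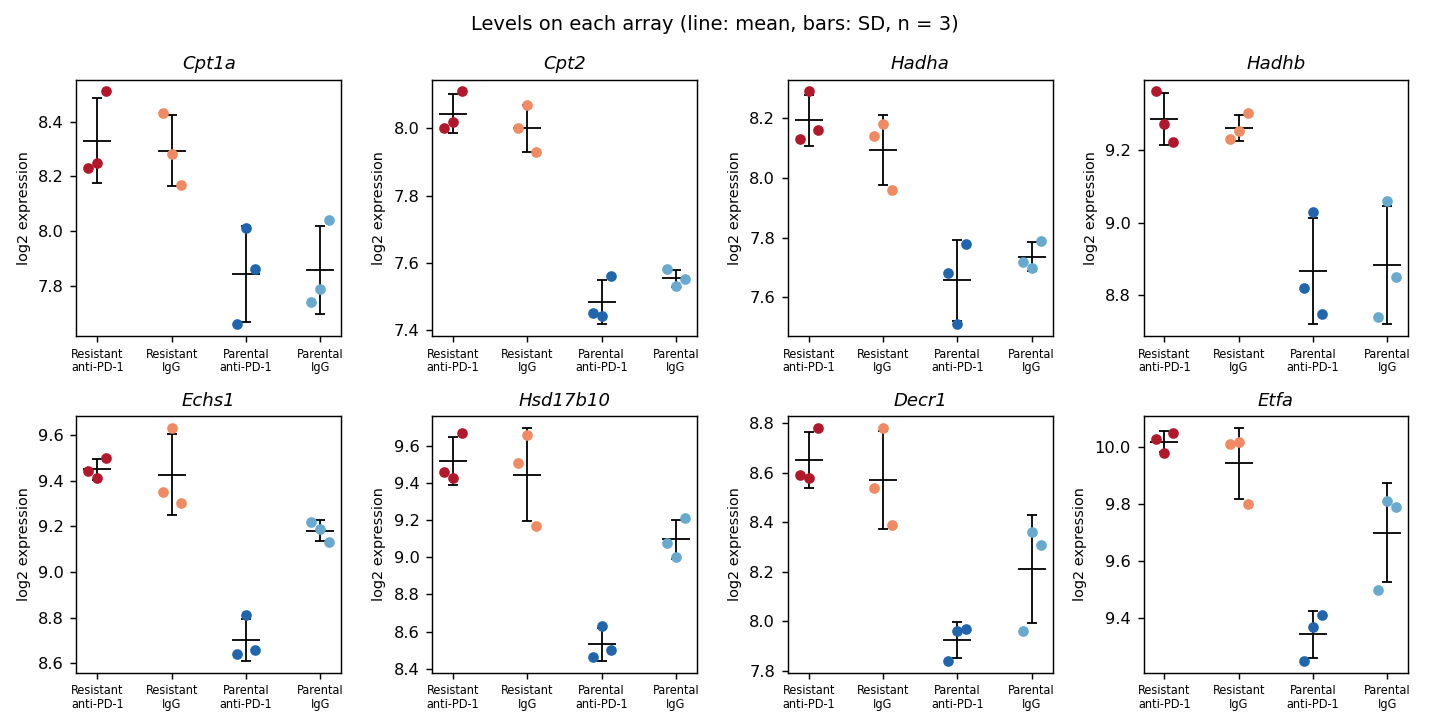
Deposited log2 levels of 8 mitochondrial genes on each of the 12 arrays, by group, with points for arrays, lines for means and bars for SD (3 arrays per group). Cpt1a, Cpt2, Hadha, Hadhb, Echs1 and Decr1 do not overlap between the lines under either antibody. For Echs1, Hsd17b10 and Etfa, every parental array under anti-PD-1 lies below all other arrays. The interaction of line and antibody was not called for any of these genes.

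Genes needed for unsaturated chains and for electron transfer followed. Decr1, the dienoyl-CoA reductase used for polyunsaturated chains, had 8.59, 8.58 and 8.78 in resistant tumours under anti-PD-1 and 8.54, 8.78 and 8.39 under IgG, against 7.84, 7.96 and 7.97 in parental tumours under anti-PD-1 and 7.96, 8.36 and 8.31 under IgG. Etfa, a subunit of the flavoprotein that collects electrons from the dehydrogenases, had 10.03, 9.98 and 10.05 in resistant tumours under anti-PD-1 and 10.01, 10.02 and 9.8 under IgG, against 9.25, 9.37 and 9.41 in parental tumours under anti-PD-1 and 9.5, 9.81 and 9.79 under IgG. Decr1 did not overlap between the lines, and Etfa did so only through resistant IgG replicate 3 at 9.8 and parental IgG replicate 2 at 9.81. The averaged differences were 0.54 ± 0.09 for Decr1 (adjusted p = 0.000828) and 0.46 ± 0.07 for Etfa (adjusted p = 0.000534). Etfb, the partner subunit, and Etfdh, which passes the electrons to ubiquinone, were also called, at 0.38 ± 0.10 and 0.20 ± 0.07 (adjusted p = 0.00935 and 0.0337). The Etfdh call was lost on leaving out any of 7 arrays (resistant anti-PD-1 replicates 1 and 3, resistant IgG replicates 1 and 2, parental anti-PD-1 replicate 2 and parental IgG replicates 1 and 2), with differences of 0.16 to 0.24 over all such omissions. Eci1, the mitochondrial enoyl-CoA isomerase, was not called (0.18 ± 0.09).

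Peroxisomal steps gave a mixed picture. Hsd17b4, the bifunctional protein of the cycle for very long and branched chains, ranged from 8.31 to 8.63 in resistant tumours, against 7.79 to 8.27 in parental tumours, without overlap (0.48 ± 0.07, adjusted p = 0.000508). Eci2, an enoyl-CoA isomerase found in peroxisomes as well as mitochondria, was higher by 0.27 ± 0.06 (adjusted p = 0.0043). Acaa1a, the peroxisomal thiolase, was the 1 gene of the set called lower, by 0.18 ± 0.07 (difference -0.18, adjusted p = 0.0479), with 7.35 to 7.58 in resistant and 7.55 to 7.78 in parental tumours. That call was lost on leaving out any of 9 arrays, all but resistant anti-PD-1 replicate 3, resistant IgG replicate 2 and parental anti-PD-1 replicate 2, with differences of -0.21 to -0.15. Ehhadh, the other bifunctional protein, exceeded the dim limit of 3.32 on 8 of 12 arrays, ran from 2.81 to 3.96, and was not called (-0.11 ± 0.18).

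Genes that set the rate of the pathway were less uniform. Mlycd, which removes malonyl-CoA, had 6.36, 6.47 and 6.32 in resistant tumours under anti-PD-1 and 6.34, 6.31 and 6.38 under IgG, against 6.17, 6.11 and 6.03 in parental tumours under anti-PD-1 and 6.01, 6.12 and 5.97 under IgG. The lines did not overlap for Mlycd, at a difference of 0.29 ± 0.05 (adjusted p = 0.0014). Ppara, the PPAR of fasting liver, was called higher by 0.31 ± 0.08 (adjusted p = 0.00847), from 4.73 to 5.21 in resistant and 4.54 to 4.81 in parental arrays. Ppard, its broadly expressed relative, and Ppargc1a were not called, at -0.09 ± 0.08 and 0.28 ± 0.14, and parental arrays spread widely for Ppargc1a, between 4.68 and 5.99, against 5.51 to 5.76 in resistant arrays.

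The differences between the lines were more positive under anti-PD-1 than under IgG for 22 of the 29 genes (75.9%), as they were for 54.5% of all genes, and 0 of the 29 passed the test of that difference given below with the interaction. Under anti-PD-1, 16 of 29 genes (55.2%) were called higher and 0 lower, with a median difference of 0.40, against a background of 33.5% of all genes called (21.6% higher, 11.9% lower) and a median of 0.07. With the probe sets used, the largest differences were 0.99 ± 0.12 for Hsd17b10 (1.99-fold, adjusted p = 0.000309) and 0.81 ± 0.12 for Acaa2 (1.75-fold, adjusted p = 0.000795). Next were 0.75 ± 0.09 for Echs1 (adjusted p = 0.000309), 0.73 ± 0.13 for Decr1 (adjusted p = 0.00165) and 0.68 ± 0.10 for Etfa (adjusted p = 0.000666). A further, dimmer probe set of Acaa2 gave 1.54. For 18 of 29 genes all 3 resistant arrays lay above all 3 parental arrays, as they did for 29.8% of all genes, and 21 of 29 had an unadjusted p under 0.05, against 44.1%. The 1 gene with the reverse order (15.8% of all genes) was Crat, at -0.28 ± 0.12 (adjusted p = 0.0989). Hadh (0.34 ± 0.13, adjusted p = 0.0594) and Ppargc1a (0.55 ± 0.20, adjusted p = 0.0604) did not pass the threshold. Of the 16 calls, 12 held whichever array was left out. Cpt1a lost its call without resistant anti-PD-1 replicate 3 (0.39 to 0.57 over all omissions), Mlycd without resistant anti-PD-1 replicate 2 (0.24 to 0.31) and Eci1 without resistant anti-PD-1 replicate 3 or parental anti-PD-1 replicate 1 (0.39 to 0.48). Etfb lost it without resistant anti-PD-1 replicate 1 or 3 or parental anti-PD-1 replicate 1 or 2 (0.39 to 0.55), and Acadvl without any of 8 arrays (0.18 to 0.35).

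Under IgG, 7 of 29 genes (24.1%) were called higher and 0 lower, with a median difference of 0.24, against 16.2% of all genes called (8.93% higher, 7.31% lower) and a median of 0.07. With each array centred on its median, the split of all genes was 6.22% higher and 7.79% lower. The 7 genes were Cpt2 (0.45 ± 0.07, adjusted p = 0.00257), Slc25a20 (0.45 ± 0.13, adjusted p = 0.037), Cpt1a (0.44 ± 0.12, adjusted p = 0.0364), Hadhb (0.38 ± 0.10, adjusted p = 0.0279), Hadha (0.36 ± 0.09, adjusted p = 0.0253), Ppara (0.36 ± 0.11, adjusted p = 0.0479) and Mlycd (0.31 ± 0.07, adjusted p = 0.0193). They therefore included Cpt1a, Cpt2 and Slc25a20 of carnitine-dependent entry, both subunits of the trifunctional protein and the enzyme that removes malonyl-CoA. For 13 of 29 genes the resistant arrays all lay above the parental arrays, against 23.6% of all genes, and for 1, Acadm, all lay below, against 15.2%. At an unadjusted p under 0.05 there were 14 of 29, against 33.1% of all genes. The count of 7 called genes was fragile. It was 1 without resistant IgG replicate 1 and 2 without resistant IgG replicate 2. It was 2 without parental IgG replicate 1, 4 without parental IgG replicate 2 and 2 without parental IgG replicate 3. Cpt2 was the 1 gene called whichever array was left out. With the mean of the adipocyte markers as a covariate the count was 0, and the share of all genes called was 3.11%. The IgG and anti-PD-1 comparisons of the lines share no arrays, and 5 genes (Cpt1a, Cpt2, Hadha, Hadhb and Mlycd) were called higher in both, 71.4% of the calls under IgG and 31.2% of those under anti-PD-1. Of all genes called under IgG, 67.7% were called the same way under anti-PD-1.

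**Figure D2:**
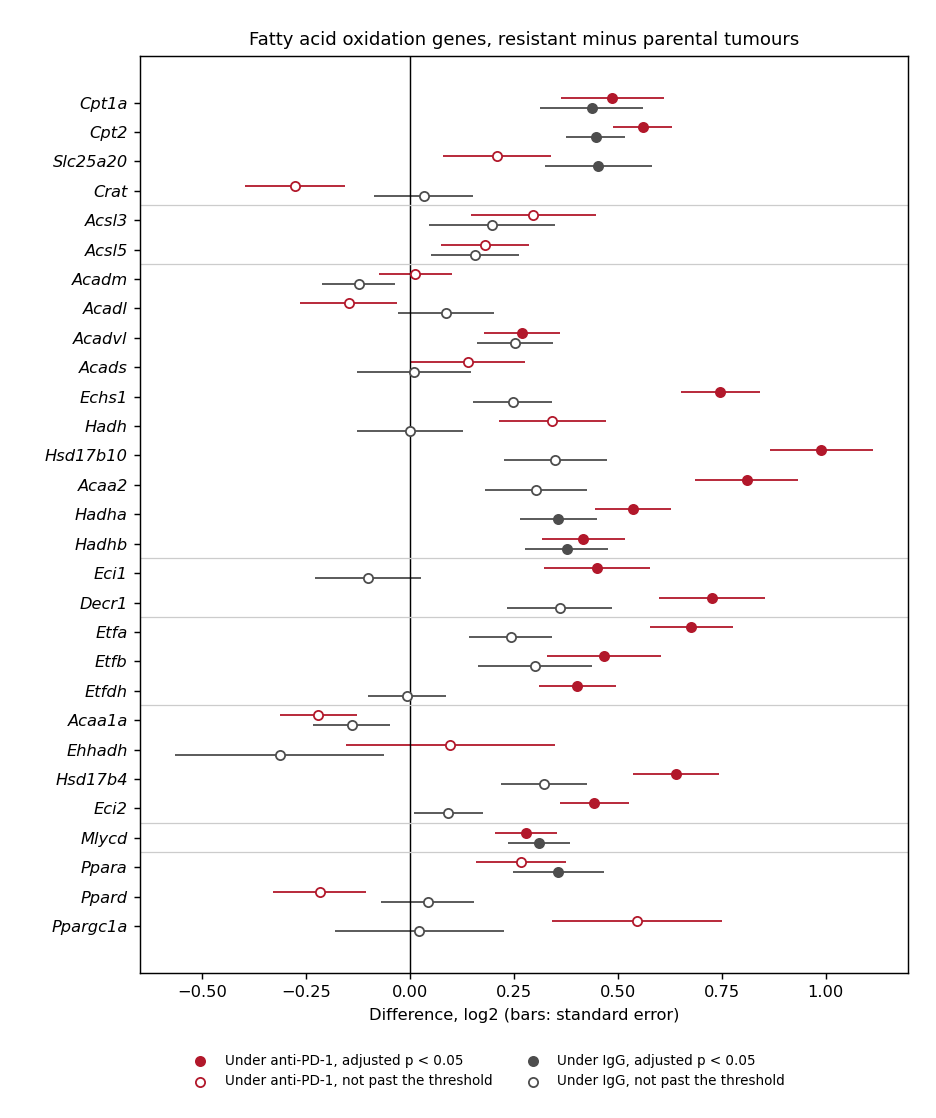
Difference in log2 expression between resistant and parental tumours for the 29 measured genes, ordered by role, under anti-PD-1 (red) and under IgG (grey), with bars for the standard error and filled points for an adjusted p under 0.05. The shuttle genes Cpt1a and Cpt2 and the trifunctional subunits Hadha and Hadhb have filled points for both, whereas Echs1, Hsd17b10, Acaa2, Decr1 and Etfa have them under anti-PD-1 and not under IgG.

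In parental tumours, the calls between anti-PD-1 and IgG were few and did not hold under every alternative. By limma, 2 of 29 genes were called lower and 0 higher in parental tumours under anti-PD-1 relative to IgG, or 6.9%, against a background of 3.5% of all genes called (1.23% higher, 2.27% lower). They were Echs1 (difference -0.48 ± 0.09, 1.39-fold lower, adjusted p = 0.0309) and Hsd17b10 (-0.57 ± 0.12, 1.48-fold lower, adjusted p = 0.0381). For 9 of 29 genes (Echs1, Hsd17b10, Acaa2, Eci1, Etfa, Etfdh, Ehhadh, Hsd17b4 and Eci2) all 3 anti-PD-1 arrays lay below all 3 IgG arrays, as they did for 13.4% of all genes, and for 0 did they lie above, against 9.12%. At an unadjusted p under 0.05 there were 11 of 29, against 21.9% of all genes. Of the differences that did not pass the threshold, the largest was -0.57 ± 0.20 for Ppargc1a (adjusted p = 0.14). Others were -0.48 ± 0.13 for Eci1 (adjusted p = 0.065), -0.36 ± 0.10 for Etfa (adjusted p = 0.073) and -0.29 ± 0.08 for Eci2 (adjusted p = 0.0771). Of the 29 differences, 19 were negative and 9 (31%) positive, against 48.2% of all genes positive. The highest was 0.29 for Ppard. Cpt1a, Cpt2 and Slc25a20 had -0.01 ± 0.12, -0.07 ± 0.07 and 0.15 ± 0.13. Both calls were lost without parental anti-PD-1 replicate 3, parental IgG replicate 1, 2 or 3, resistant IgG replicate 1 or any resistant anti-PD-1 array, and that of Hsd17b10 also without parental anti-PD-1 replicate 1. Over these omissions Echs1 stayed between -0.53 and -0.44 and Hsd17b10 between -0.62 and -0.51. The arrays of resistant tumours enter this comparison only through the shared estimate of the spread. With only the arrays of this comparison, 0 of 29 genes and 0% of all genes were called. With the mean of the skeletal muscle markers as a covariate, 0 of 29 genes and 0.568% of all genes were.

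In resistant tumours, 0 of 29 genes were called between anti-PD-1 and IgG by limma, as were 0% of all genes, and 0 of the 29 had an unadjusted p under 0.05, against 4.77% of all genes. All 3 anti-PD-1 arrays lay below all 3 IgG arrays for 1 gene, Crat, as they did for 5.39% of all genes, and above them for 0, against 8.82%. The differences ran from -0.18 for Crat to 0.19 for Acaa2 and Hadh, with a median of 0.04, and Echs1 and Hsd17b10 had 0.02 ± 0.09 and 0.07 ± 0.12. Whether anti-PD-1 acted differently in the 2 lines was tested as an interaction, and 0 of 29 genes passed, as did 0% of all genes. At an unadjusted p under 0.05 there were 7 of 29, all positive (Echs1, Hsd17b10, Acaa2, Eci1, Etfa, Etfdh and Eci2), against 17.5% of all genes. The smallest adjusted p among them was 0.155, for Echs1, whose interaction was 0.50 ± 0.13. The difference in response between the lines was therefore not shown for any gene of the set, at a median standard error of 0.17 over all genes.

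**Figure D3:**
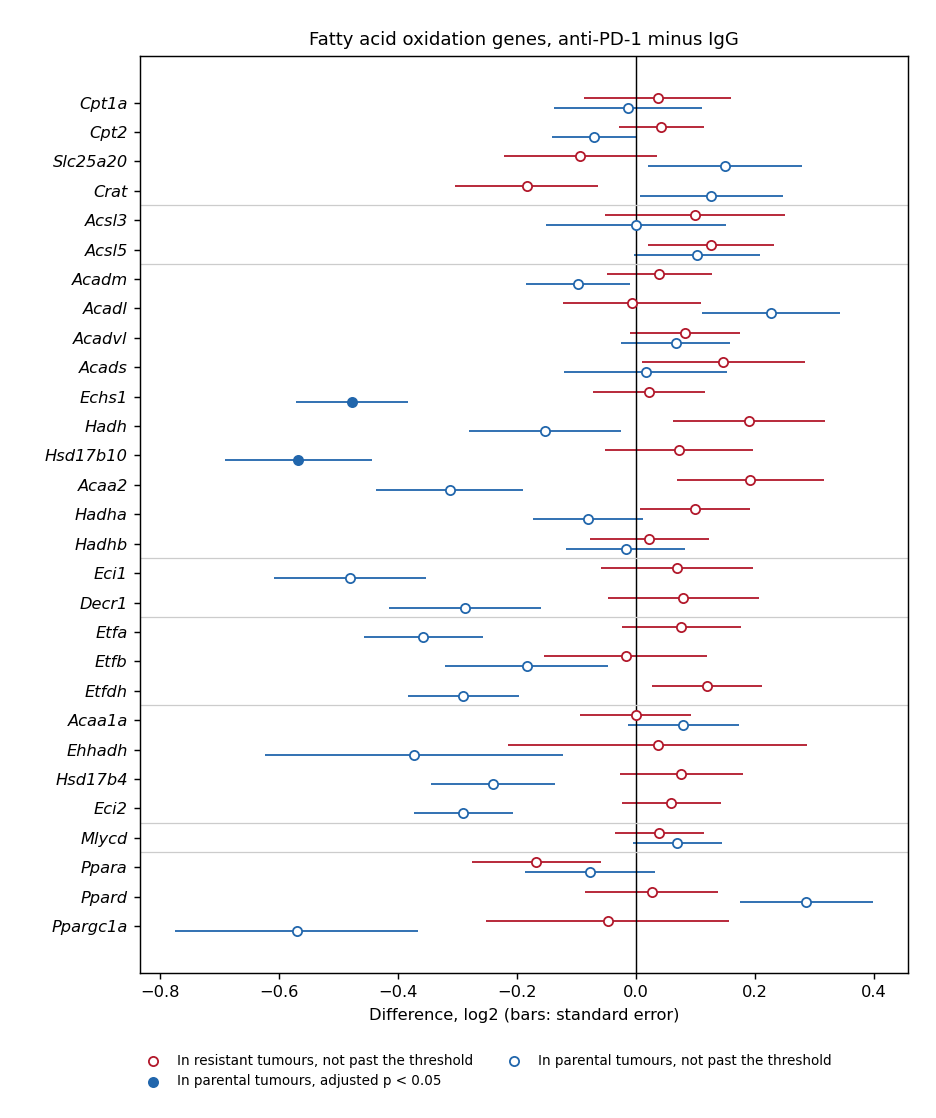
Difference in log2 expression between anti-PD-1 and IgG for the 29 measured genes in resistant tumours (red) and in parental tumours (blue), with bars for the standard error and filled points for an adjusted p under 0.05. Filled points are found for Echs1 and Hsd17b10 in parental tumours, and the resistant differences all lie between -0.18 and 0.19.

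Mitochondrial and peroxisomal steps were set side by side by their counts. With the antibodies averaged, 13 of 18 mitochondrial steps were called higher and 0 lower in resistant tumours, with a median of 0.39, and of the 4 peroxisomal steps 2 were higher and 1 lower, with a median of 0.08, against 25.2% of all genes higher and 15% lower. Under anti-PD-1 the counts were 13 of 18 and 2 of 4 higher, with medians of 0.46 and 0.27, against 21.6% of all genes. Under IgG they were 5 of 18 and 0 of 4 higher, with medians of 0.28 and -0.02, against 8.93% of all genes. After each gene was centred on its own mean, the mitochondrial steps averaged 0.20 ± 0.06 in resistant tumours under anti-PD-1, 0.14 ± 0.13 in resistant tumours under IgG, -0.25 ± 0.03 in parental tumours under anti-PD-1 and -0.09 ± 0.08 in parental tumours under IgG (SD, n = 3 each). All 6 parental arrays lay below all 6 resistant arrays for this mean, the closest being resistant IgG replicate 3 at -0.01 and parental IgG replicate 2 at -0.04. The peroxisomal steps averaged 0.08 ± 0.15, 0.04 ± 0.21, -0.16 ± 0.04 and 0.04 ± 0.05 in the same groups, and here resistant and parental tumours under IgG overlapped fully. With 4 peroxisomal genes, of which Ehhadh was near the dim limit, a difference between the classes was not tested.

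Gene lists around these steps were counted in the same way, against 25.2% of all genes called higher and 15% lower with the antibodies averaged. Of 18 other peroxisomal genes tested, 6 (33.3%) were called higher and 1 (5.56%) lower in resistant tumours, with a median of 0.17, so that the share called higher was near that of all genes. Among them were Ech1, a dienoyl-CoA isomerase of both organelles (0.65 ± 0.09, adjusted p = 0.000269), and the import genes Pex7 (0.45 ± 0.08, adjusted p = 0.00136) and Pex13 (0.29 ± 0.06, adjusted p = 0.00298). Crot, which exports medium chains from peroxisomes as carnitine esters, was higher by 0.81 ± 0.12 under anti-PD-1 (adjusted p = 0.00069) and was called lower by anti-PD-1 in parental tumours (-0.65 ± 0.12, adjusted p = 0.0266). Of 19 other mitochondrial acyl-CoA genes, 8 (42.1%) were higher and 1 (5.26%) lower, led by Hibch of valine breakdown (0.58 ± 0.09, adjusted p = 0.000572) and Pccb of propionyl-CoA carboxylase (0.53 ± 0.10, adjusted p = 0.00187). The lower one was Acsl4, the synthetase for arachidonic acid (-0.46 ± 0.08, adjusted p = 0.00125).

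The remaining lists had shares called higher near or below the 25.2% of all genes, so the genes named from them are single results. Of 12 PPAR targets tested, 2 (16.7%) were called higher and 1 (8.33%) lower with the antibodies averaged: Plin2, the lipid droplet coat protein (0.41 ± 0.09, adjusted p = 0.00408), Cidea (1.02 ± 0.33, adjusted p = 0.0301), a lipid droplet protein that is also on the list of brown adipocyte markers, and Acot1, a cytosolic acyl-CoA thioesterase (-0.36 ± 0.10, adjusted p = 0.0123). The median of the list had opposite signs under the antibodies, but 0 of 12 genes passed the interaction, as did 0% of all genes. The smallest adjusted p for it by limma was 0.136, for Angptl4. Under anti-PD-1, 3 of 12 were positive with a median of -0.19, and the smallest adjusted p was 0.119, for Cidea (1.01 ± 0.47). Under IgG, 11 of 12 were positive with a median of 0.52, and 2 were called higher, Plin2 (0.60 ± 0.12, adjusted p = 0.00992) and Angptl4, a lipase inhibitor (0.74 ± 0.15, adjusted p = 0.0103), and 1 lower, Acot1 (-0.48 ± 0.14, adjusted p = 0.0358). Of 10 genes of fatty acid uptake and release, 0 were higher and 1 (10%) lower, Fabp5, the epidermal fatty acid binding protein (-1.14 ± 0.14, adjusted p = 0.000127). Of 4 ketone body genes 1 (25%) was higher, the mitochondrial acetoacetyl-CoA thiolase Acat1 (0.66 ± 0.07, adjusted p = 7.43e-05). Of 19 further regulators of oxidative metabolism 5 (26.3%) were higher and 3 (15.8%) lower, shares close to those of all genes. Among the higher ones were the deacetylase gene Sirt1 at 0.63 ± 0.07 (adjusted p = 6.2e-05) and the mitochondrial transcription factor gene Tfam at 0.36 ± 0.07 (adjusted p = 0.00218). Pparg, which is also on the list of adipocyte markers, was higher by 0.68 ± 0.10 (adjusted p = 0.000339). Tfam was also called lower under anti-PD-1 in parental tumours (-0.46 ± 0.10, adjusted p = 0.0371).

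Host tissue in the samples varied between arrays. The mean of 18 skeletal muscle markers was 7.72 ± 1.42 in resistant tumours under anti-PD-1 and 9.20 ± 0.48 in resistant tumours under IgG. It was 10.1 ± 0.98 in parental tumours under anti-PD-1 and 8.81 ± 2.12 in parental tumours under IgG. Of the 18 markers, 0 were below the dim limit on all arrays. Markers of slow or oxidative muscle formed a separate list, which was not used as a covariate. Between the lines under anti-PD-1, 18 of 18 muscle markers had a negative difference (median -2.40) and 3 were called lower in resistant tumours, opposite to the oxidation genes. Under IgG, 15 of 18 had a positive difference (median 0.46), the direction of the oxidation genes. With the muscle mean as a covariate, 16 of 29 oxidation genes were called under anti-PD-1, 7 under IgG and 0 in parental tumours between the antibodies. These were not all the same genes. Of the 16 called under anti-PD-1 without the covariate 14 kept their call, and of the 7 under IgG 6 did. The shares of all genes called with it were 20.5%, 17.5% and 0.568%, against 33.5%, 16.2% and 3.5% without it. Crat and Acadl were at their highest, 7.83 and 9.91, on parental anti-PD-1 replicate 3, the array with the highest muscle mean (11.1), and their share from muscle was not tested further. The mean of 9 adipocyte markers was 5.42 ± 0.35 in resistant tumours under anti-PD-1, 6.51 ± 1.32 in resistant tumours under IgG, 5.6 ± 0.57 in parental tumours under anti-PD-1 and 4.96 ± 0.45 in parental tumours under IgG, with resistant IgG replicate 2 at 8.02. Under IgG all 8 adipocyte markers tested had a positive difference between the lines (median 1.10), and under anti-PD-1 1 of 8 did (median -0.29). With the adipocyte mean as a covariate, 16 genes were called under anti-PD-1 and 0 under IgG. The shares of all genes called with it were 32.9% and 3.11%. The mean of 5 T cell markers was 4.62 to 4.98 in resistant and 4.72 to 6.06 in parental tumours, and its part in the results was not tested.

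**Figure D4:**
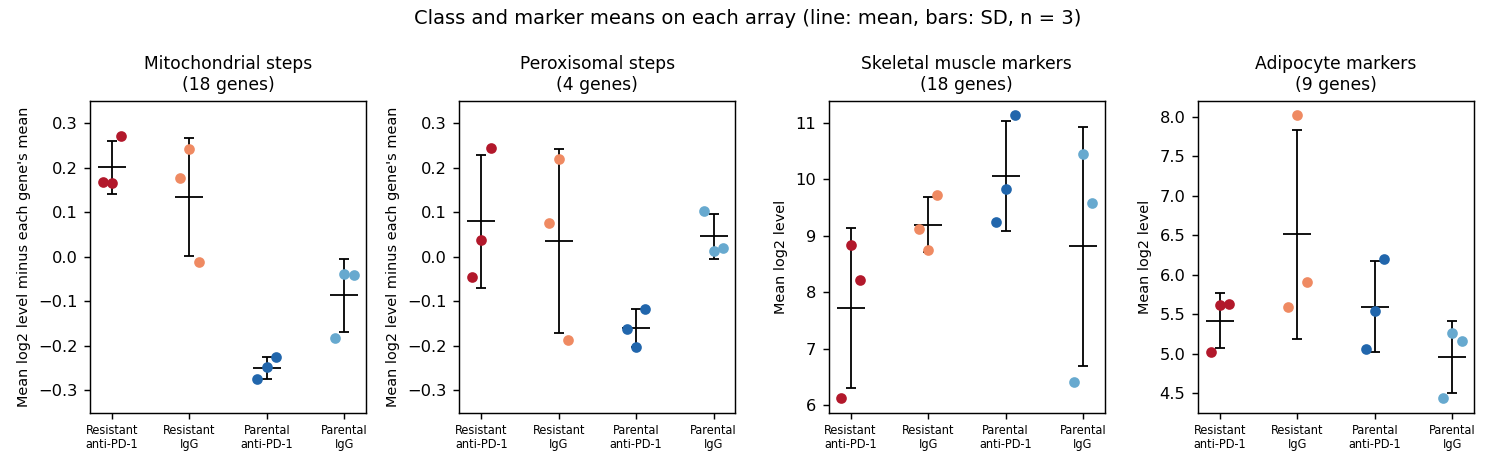
Means on each array, by group, of the 18 mitochondrial and 4 peroxisomal steps (log2 level minus each gene's mean), of 18 skeletal muscle markers and of 9 adipocyte markers (log2 level), with points for arrays, lines for means and bars for SD (3 arrays per group). The mitochondrial mean is above that of every parental array on every resistant array, while muscle markers are highest in parental tumours under anti-PD-1 and adipocyte markers on 1 resistant IgG array, at 8.02.

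Further properties of the arrays and the genome were recorded. The 3′ minus 5′ control signal, which grows as RNA is shortened, was 0.04 ± 0.05 for Gapdh in resistant and 0.26 ± 0.10 in parental arrays. For actin it was 0.48 ± 0.08 and 0.75 ± 0.11 (SD, n = 6 each). The lines did not overlap for either control. Gapdh ran from -0.03 to 0.09 in resistant and 0.14 to 0.38 in parental arrays, and actin from 0.33 to 0.55 and 0.58 to 0.85. The part of this signal in the line differences was not tested. Of the called genes, Mlycd lies on chromosome 8, where the median difference of all tested genes was 0.25 and 51.5% were called higher, against its own 0.29. Cpt2 and Decr1 lie on chromosome 4, with a median of 0.14 and 37.7% called higher, and Hadha and Hadhb on chromosome 5, with 0.04 and 19.8%. Ppara, on chromosome 15 with a median of -0.03 and 12.2% called higher, differed against the trend of its chromosome. Of 27 further probe sets for 17 of the genes, 4 were above the dim limit on fewer than 3 arrays, and 2 of these, for Acadl (0.08) and Ppara (-0.01), had the other sign. Of the remaining 23, for 14 genes, 20 had the same sign as the one used for the averaged line difference. The exceptions among these were 1 probe set each for Hadhb (-0.29), Crat (0.14) and Ppard (0.27), while the other 1 for Hadhb gave 0.43. Sizes also varied: further probe sets of Acaa2 gave 0.71 and 1.01, against 0.56 for the one used. A dimmer one of Acsl3 gave 0.58, against 0.25, whereas those of Cpt1a gave 0.37 and 0.40, against 0.46.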

How the data were processed

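Total RNA from whole tumours was labelled with biotin and hybridized to 12 Affymetrix whole-genome mouse arrays, per the labels' protocols. The authors deposited log2 values for each probe set, from 1.62 to 13.88. The log2 scale was read from the values, and the background correction, normalization and summarization are not given in the sources used here. Lower quartiles of 3.27 to 3.36 on the arrays were near equal. Arrays have no read depth, so their number limits the precision.

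Of 45101 probe sets, 64 controls, 932 with several genes and 9160 without a name were left out of the gene tests. The other 34945 named 18193 genes, with symbols updated by gene number for 34741 probe sets. Genes above 3.32 (the 25th percentile of all values) on at least 3 arrays, 15493 in all, entered a limma fit (version 3.58.1, R version 4.3.3) that gave each group its own mean, with 8 residual and 2.98 prior degrees of freedom. The 6 contrasts were the lines averaged over the antibodies, the lines under each antibody, anti-PD-1 in each line and the interaction. Two-sided p-values were adjusted over all 15493 genes (Benjamini-Hochberg) and called under 0.05. The median standard error was 0.08 for the averaged difference, 0.12 between pairs of groups and 0.17 for the interaction. Comparisons with a group in common are not independent. All 31 genes of the set are named, with at most 3 genes of smallest p from each list of related genes. The members and all lists were chosen with earlier results of these data known. Alternatives changed the filter, scaling, probe set, prior, weights, replicate block, covariates and arrays used. The fit was tested on simulated data, and Python 3.11.15 with matplotlib 3.10.9 made the figures. Promoter and gene tables came from RefSeq, assembly GRCm38.p6.

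Replicate numbers run from 1 to 3 in every group, and the labels do not say that they mark a shared mouse, batch or day. Deviations from the group means correlated over 0.1 in 14 of 18 same-number pairs of arrays (range -0.21 to 0.64), and in all 3 pairs for 2 of 6 pairs of groups, 1 of them resistant tumours under anti-PD-1 with resistant tumours under IgG. Pairs with different numbers ran from -0.52 to 0.37. Of 36 best matches, each picked from the 3 arrays of another group, 27 had the same number. The values thus show pairing by number in part. The main fit leaves it out, since the other pairs of groups did not reach this and the labels name no shared source. The blocked fit is an alternative.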

Additional observations from a re-analysis of the deposited data

How the results depend on the processing

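The number of oxidation genes called was steady for the averaged lines (18, 16 to 20 under the alternatives) and for the line comparison under anti-PD-1 (16, 13 to 19). It was 0 under every alternative run for the antibodies in resistant tumours and the interaction. Leaving out 1 array gave 16 to 18 calls for the averaged lines, 13 to 18 under anti-PD-1, 1 to 9 under IgG and 0 to 2 for anti-PD-1 in parental tumours. Under IgG, with 7 calls, there were 4 with arrays centred on their medians, 4 with the mean of all probe sets, 14 with array weights, 4 without parental IgG replicate 1 and parental anti-PD-1 replicate 3 together, and 0 with the adipocyte mean as a covariate. For anti-PD-1 in parental tumours, with 2 calls, there were 4 after centring, 7 with array weights (of them 1 higher), 1 without those arrays together, 0 with the muscle mean as a covariate and 0 with only the arrays of that contrast. Ppard was called higher in the averaged lines (0.268) when the probe set with the largest SD was used, against -0.09 and no call. The cause of these changes was not tested. The replicate number was also used as a block, which the same-number correlations favour in part (27 of 36 best matches, each among 3 arrays). With it, 18 genes were called in the averaged lines, 7 under IgG and 15 under anti-PD-1. In parental tumours 2 were called, in resistant tumours 0 and in the interaction 0. The block ended the calls of Acaa1a in the averaged lines (so that 18 were higher and 0 lower, adjusted p = 0.0614 by limma), Ppara under IgG (0.0505) and Acadvl under anti-PD-1 (0.0511), and added Acsl3 in the averaged lines (0.0401) and Hsd17b4 under IgG (0.0481).

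Over all genes, array weights gave 5151 calls under IgG, against 2517, and the adipocyte covariate 482. In parental tumours, against 542, there were 918 with array weights, 100 without those arrays together, 88 and 255 with the muscle and adipocyte covariates and 0 with only the arrays of the contrast. Leaving out 1 array gave 1273 to 3483 under IgG and 9 to 712 in parental tumours. Of the member calls, 14 of 18 in the averaged lines and 11 of 16 under anti-PD-1 held under every alternative run, and 0 of 7 under IgG and 0 of 2 in parental tumours did. Ehhadh, close to the dim limit, and the shared sequence of Acaa1a limit what these arrays can show for peroxisomal steps.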

Other observations

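Markers of other cell types were counted beside the oxidation genes for the lines under each antibody. Of 7 markers of slow or oxidative muscle, 3 were called lower in resistant tumours under anti-PD-1 (0 of 7 positive, median -1.15), and under IgG 5 of 7 were positive (median 0.31). Of 10 macrophage markers, 1 was lower under anti-PD-1 (median -0.40), and 2 were higher under IgG (median 0.06). Of 7 endothelial markers, 1 was positive under anti-PD-1 (median -0.35), and under IgG all 7 were positive (median 0.62) with 1 called higher. Of 5 T cell markers, 2 were lower under anti-PD-1 (median -0.63), and under IgG 1 of 5 was positive (median -0.29). Of 8 epithelial markers, 1 was higher and 2 lower under anti-PD-1 (median -0.19), and 2 were lower under IgG (median -0.33). The part of these cell types in the differences of the oxidation genes was not tested.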
